A study of Mus musculus with 12 samples.

Results

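The growth factor genes described here were Fgf2, Fgf7, Hgf, Pdgfa, Pdgfc and Vegfc, which encode secreted ligands, and Fgfr1 and Fgfr2, which encode fibroblast growth factor receptors. They were chosen by gene name, and all 8 were present among the 13233 genes with deposited values. RNA-Seq had been carried out on primary skeletal muscle fibroblasts grown from the lower abdominal muscle (LAM) of Aromhum mice, which carry a human aromatase transgene and develop scrotal hernias, and the study calls these cells hernia-associated fibroblasts (HAFs). The cells had been treated for 48 h with vehicle (ethanol and DMSO), with 10 nM estradiol (E2), with both E2 at 10 nM and fulvestrant at 100 nM, or with 100 nM fulvestrant as the only agent, giving 4 groups of 3 samples. Fulvestrant is an estrogen receptor antagonist that also lowers the amount of receptor protein. All samples, vehicle included, came from Aromhum cells cultured in medium with charcoal-stripped serum, so the data hold no wild-type fibroblasts and no cells in their tissue. The labels number the samples 1 to 3 in each group and do not say whether the numbers stand for separate mice or cultures, so p-values measure the spread between these samples, which may be technical in part.

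Fibroblast growth factors (FGFs) bind receptor tyrosine kinases together with heparan sulfate on the cell surface and signal through the ERK pathway, which in turn induces its own inhibitors. Fgf7 and Hgf are classical products of stromal fibroblasts: FGF7 acts on epithelial cells through a splice form of FGFR2, and hepatocyte growth factor (HGF) acts on epithelial, endothelial and muscle precursor cells through MET. Platelet-derived growth factor (PDGF) ligands act on fibroblasts themselves through PDGFRA and PDGFRB, and VEGFC acts mainly on lymphatic endothelium through FLT4.

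In the HAFs, Fgf7 and Hgf were lower with fulvestrant than without it, whether or not E2 was present. Fgfr1 was slightly higher with E2 plus fulvestrant than with E2, a call close to the thresholds that was lost without each replicate number in turn. It was higher by a similar amount with fulvestrant than with vehicle, where it was not called. No member was called between E2 and vehicle, where 0.431% of all genes were called, or between E2 plus fulvestrant and fulvestrant alone, where 0% were. The other members differed more between replicate numbers than between treatments. A gene was called when its adjusted p was under 0.05 and its fold change was over 1.2 in a limma fit that compared samples of the same replicate number, and the fit without this pairing called none of the 8 genes in any comparison.

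The stretches just upstream of Fgf7 and Hgf are shown because these genes fell together, and the study concerns estrogen receptor signaling. Both are the 250 bases before the RefSeq start in GRCm38.p6, read 5′ to 3′ on the gene's strand, with the motif GGTCA, one arm of an estrogen response element, in capitals.
Fgf7, chr2:126034408-126034657, plus strand: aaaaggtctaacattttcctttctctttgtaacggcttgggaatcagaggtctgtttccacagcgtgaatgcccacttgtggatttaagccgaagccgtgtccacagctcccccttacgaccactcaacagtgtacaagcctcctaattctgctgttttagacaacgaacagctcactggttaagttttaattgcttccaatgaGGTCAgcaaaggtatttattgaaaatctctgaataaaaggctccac
Hgf, chr5:16553245-16553494, plus strand: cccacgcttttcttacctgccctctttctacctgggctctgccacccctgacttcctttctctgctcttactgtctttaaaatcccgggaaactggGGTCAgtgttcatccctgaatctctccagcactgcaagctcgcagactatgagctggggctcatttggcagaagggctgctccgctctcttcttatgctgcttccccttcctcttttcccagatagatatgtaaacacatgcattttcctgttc
The half-site began 46 bases upstream of the start in Fgf7 and 154 bases upstream in Hgf. Pdgfa, which was not called in any comparison, also had one, as TGACC, beginning 84 bases upstream of its first start. The second RefSeq start of Hgf had no half-site in its window. Of all 32851 such windows, 35.2% held GGTCA or its reverse complement TGACC, so a match is common. The whole element GGTCANNNTGACC, which is made of both half-sites, was in 0.0639% of windows and in none of those of the 7 members with an entry. The AP-1 motif TGANTCA (6.75% of windows) and the glucocorticoid response element GNACANNNTGTNC (0.387%), searched on both strands, were not in these windows either. The absence of these letters from 250 bases does not bear on whether a receptor acts on the gene from elsewhere.

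The cells carried the markers of fibroblasts, and all 8 fibroblast markers were listed. None of 8 myogenic, 6 endothelial or 5 adipocyte markers was among the listed genes, a list that holds only genes with at least 10 reads in every sample. Of the other lists, 2 of 6 immune, 4 of 6 mural and 2 of 5 glial markers were listed, with none called in any comparison. Each sample had between 18827792 and 44040507 reads on these genes. The treatment itself was visible in Pgr, the progesterone receptor gene and a known estrogen target, which rose by 1.88 on the log2 scale with E2 over vehicle (adjusted p = 0.0143) and fell by 3.28 when fulvestrant was added to E2 (adjusted p = 3.78e-04, or 0.0941 without the replicate block). Esr1, the estrogen receptor gene, fell by 2.26 on the log2 scale with E2 plus fulvestrant against E2 (adjusted p = 0.00242). With fulvestrant against vehicle, where no E2 was added, Pgr fell by 1.82 (limma adjusted p = 0.0333) and Esr1 by 1.46 (limma adjusted p = 0.00757). Pgr was low with fulvestrant, at 14.8, 28.4 and 27.0 normalized counts with E2 plus fulvestrant and 13.0, 21.5 and 16.2 with fulvestrant alone. Samples of the same replicate number deviated from their group means together, but samples of different numbers were not compared in this way. Replicate 1 stood apart from replicates 2 and 3 in many genes, Pdgfc and Fgfr2 among them.

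Fgf7 (ENSMUSG00000027208, GRCm38 chr2:126034658-126091185) had normalized counts of 4544, 6023 and 5752 in vehicle replicates 1 to 3, and 4306, 5596 and 5927 with E2. With E2 plus fulvestrant the values were 3080, 3151 and 3420, and with fulvestrant alone 3257, 3474 and 3495. All 6 samples with fulvestrant were below all 6 without it. The mean of the E2 group was 5276 ± 857 (SD, n = 3), that of the E2 plus fulvestrant group was 3217 ± 180 (SD, n = 3), and Fgf7 fell by 0.70 on the log2 scale (SE 0.08, 95% interval −0.88 to −0.52, limma adjusted p = 0.00352). Against vehicle at 5440 ± 788 (SD, n = 3), fulvestrant alone gave 3409 ± 132 (SD, n = 3), a decrease of similar size in which Fgf7 fell by 0.66 (SE 0.08, 95% interval −0.86 to −0.47, adjusted p = 0.00963). It was lower in 3 of 3 same-numbered pairs in each comparison. Without the replicate block the adjusted p was 0.266 and 0.355.

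Hgf (ENSMUSG00000028864, chr5:16553495-16620152) showed the largest change of the 8 genes. Its normalized counts were 206, 265 and 304 with vehicle and 177, 331 and 318 with E2. They were 73.9, 97.2 and 121 with E2 plus fulvestrant and 89.1, 112 and 102 with fulvestrant alone, and again no sample with fulvestrant reached any sample without it. From 275 ± 85.9 (SD, n = 3) under E2, Hgf was 97.5 ± 23.8 (SD, n = 3) with E2 plus fulvestrant, or 0.363-fold in the fit (95% interval 0.283 to 0.464), and fell by 1.46 on the log2 scale (SE 0.15, adjusted p = 0.00312). From 259 ± 49.2 (SD, n = 3) with vehicle, it was 101 ± 11.3 (SD, n = 3) with fulvestrant, or 0.396-fold (95% interval 0.311 to 0.505, log2 SE 0.15, adjusted p = 0.0066). Without the replicate block the adjusted p was 0.334 and 0.325. Hgf was also the least abundant member, with 63 to 454 reads per sample. Of its exon sequence, 6.74% lies in exons of Gm43489 on the same strand, and reads from there cannot be assigned to Hgf alone.

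Of the 8 members, 3 were called between E2 plus fulvestrant and E2, 1 higher and 2 lower, where 8.68% of all 13233 genes were called (4.6% higher and 4.07% lower). Between fulvestrant and vehicle 2 were called, both lower, where 5.23% of all genes were called (2.74% higher and 2.49% lower). The groups did not overlap for 2 of the 8 genes, Fgf7 and Hgf, in each of these comparisons, against 12.5% of all genes between E2 and E2 plus fulvestrant and 11.1% between vehicle and fulvestrant. Both calls against vehicle were lost without replicate 2 and without replicate 3, with adjusted p of 0.0941 and 0.0875 for Fgf7 and 0.0569 and 0.0753 for Hgf. The summed normalized counts of the fibroblast markers moved with fulvestrant too, from 438290 to 484000 with vehicle and 507510 to 566090 with E2 to 365660 to 376320 with E2 plus fulvestrant and 333720 to 388560 with fulvestrant. Among these markers Lum and Col1a1 were called lower with E2 plus fulvestrant against E2 and Lum alone with fulvestrant against vehicle. Ly6a, also among them, was not called and was higher in each of the 6 pairs, at 0.44 on the log2 scale (adjusted p = 0.0508) and 0.83 (adjusted p = 0.0961), so the markers did not all move with their sum. The part of this shift in the results for Fgf7 and Hgf was not tested. In bulk RNA, fewer cells of a type and less RNA per cell cannot be told apart.

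**Figure D1:**
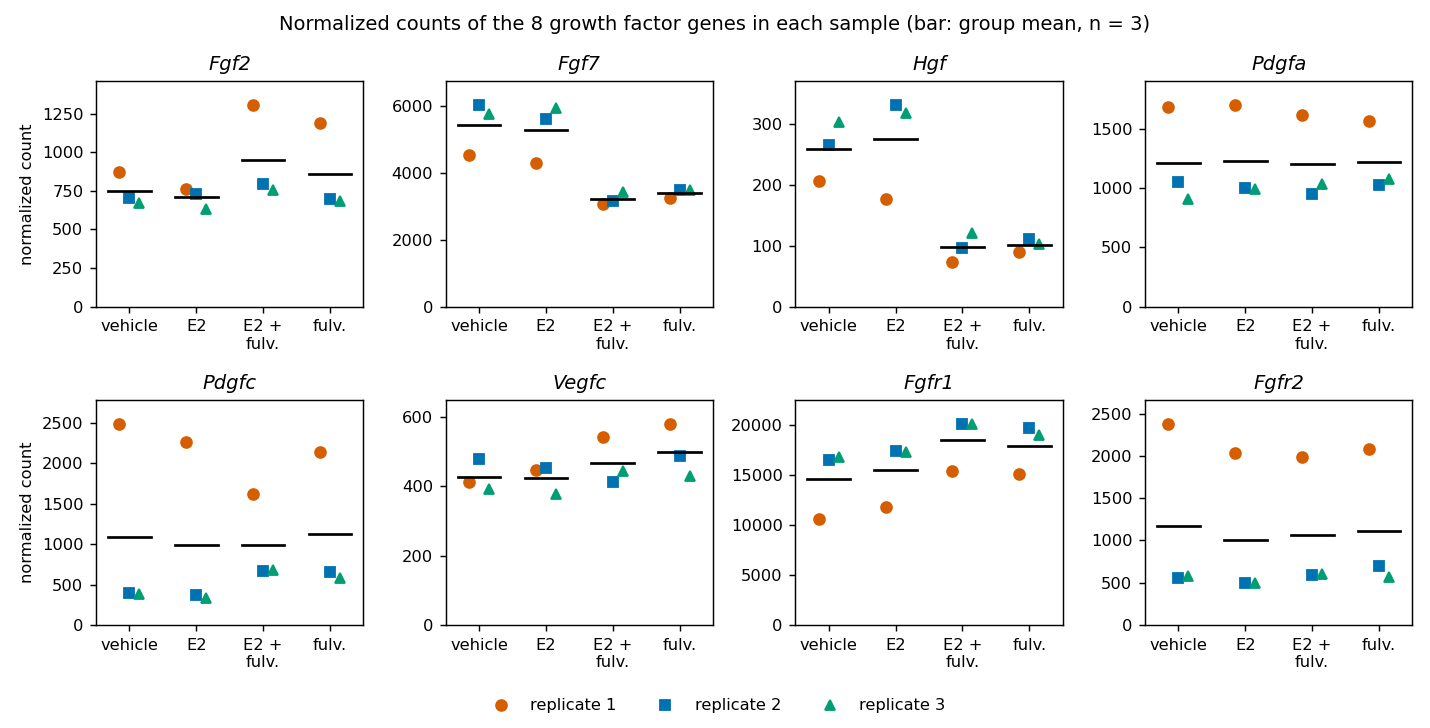
Normalized counts (vertical axis, linear, from 0, with a range of its own for each gene) of the 8 growth factor genes in the 12 samples, by group, with the replicate number as colour and symbol and the group mean of n = 3 as a bar. The fulvestrant samples of Fgf7 and Hgf lie below every sample without fulvestrant, and replicate 1 lies apart from replicates 2 and 3 for Pdgfa, Pdgfc, Fgfr1 and Fgfr2 in all 4 groups.

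Fgf2 (ENSMUSG00000037225, chr3:37348346-37410108), the ligand known as basic FGF, was not called in any comparison. Its normalized counts were 872, 704 and 674 with vehicle, 760, 730 and 635 with E2, 1304, 792 and 755 with E2 plus fulvestrant, and 1189, 698 and 683 with fulvestrant. The high values belonged to replicate 1 of the 2 fulvestrant groups, and the other samples lay between 635 and 872. With E2 plus fulvestrant against E2 the log2 difference was 0.38 (95% interval 0.08 to 0.68, adjusted p = 0.112), made of 0.78 in replicate pair 1, 0.12 in pair 2 and 0.25 in pair 3. Fulvestrant against vehicle gave 0.15 (95% interval −0.12 to 0.42, adjusted p = 0.492). Fgf2 shares 3.76% of its exon sequence with Gm43439 on the same strand, which the counting cannot separate. It shares 9.44% with Nudt6 on the opposite strand, and Pdgfa shares 26.1% with 6330403L08Rik on the opposite strand, which the strand-specific counting separates.

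The PDGF ligands Pdgfa and Pdgfc both depended strongly on the replicate number. Pdgfa (ENSMUSG00000025856, chr5:138976014-138997370), a ligand of PDGFRA, was at 1563 to 1700 in the replicate 1 samples and 905 to 1075 in the other 8. Its group means lay within a narrow range, from 1199 ± 363 (SD, n = 3) under E2 plus fulvestrant to 1230 ± 407 (SD, n = 3) under E2. The log2 difference was −0.03 (95% interval −0.17 to 0.12, adjusted p = 0.803) for E2 plus fulvestrant against E2, and 0.04 (95% interval −0.18 to 0.26, adjusted p = 0.862) for fulvestrant against vehicle.

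Pdgfc (ENSMUSG00000028019, chr3:81036416-81214040), a PDGF ligand that is secreted in latent form, behaved differently in replicate 1 from the other pairs. Replicate 1 had 2488 normalized counts with vehicle, 2265 with E2, 1614 with E2 plus fulvestrant and 2138 with fulvestrant, so both fulvestrant values were below both others. Replicates 2 and 3 had 391 and 388 with vehicle and 375 and 329 with E2, but 670 and 675 with E2 plus fulvestrant and 656 and 576 with fulvestrant, so here the fulvestrant values were the higher ones. The log2 differences between E2 plus fulvestrant and E2 were −0.49, 0.84 and 1.03 in pairs 1 to 3, which gave 0.46 (95% interval −0.18 to 1.10, adjusted p = 0.32), while the group means of 987 and 989 were nearly equal. Fulvestrant against vehicle gave −0.22, 0.74 and 0.57, or 0.36 in all (95% interval −0.05 to 0.78, adjusted p = 0.289). In the fit without replicate 1, in which 14.8% of all genes were called with E2 and 16.7% without it, Pdgfc passed the test at 0.94 (adjusted p = 5.83e-07) and 0.66 (adjusted p = 0.00178) on the log2 scale.

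Vegfc (ENSMUSG00000031520, chr8:54077606-54187096) was at 377 to 581 normalized counts in all samples. The values were 412, 480 and 392 with vehicle, 447, 453 and 377 with E2, 542, 412 and 445 with E2 plus fulvestrant, and 581, 487 and 430 with fulvestrant, and the 4 groups overlapped. The log2 difference was 0.13 (95% interval −0.13 to 0.39, adjusted p = 0.502) for E2 plus fulvestrant against E2. For fulvestrant against vehicle it was 0.21 (95% interval −0.07 to 0.50, adjusted p = 0.364), made of 0.49, 0.02 and 0.13 in pairs 1 to 3, and 0.08 without replicate 1.

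Of the receptors, Fgfr1 (ENSMUSG00000031565, chr8:25513654-25575718) was the more abundant. Its normalized counts were 10563, 16455 and 16752 with vehicle and 11798, 17384 and 17249 with E2. With E2 plus fulvestrant they were 15362, 20045 and 20100, and with fulvestrant 15104, 19655 and 18977. Within each replicate number both fulvestrant samples were above both samples without it, but the groups overlapped because replicate 1 was low throughout. The change with E2 plus fulvestrant against E2 was 0.27 on the log2 scale (SE 0.07, 95% interval 0.11 to 0.42, adjusted p = 0.0495), or 1.205-fold, close to both thresholds, and with no block the adjusted p was 0.986. This call was lost without each replicate number in turn, with adjusted p from 0.0757 to 0.246. Fulvestrant against vehicle gave 0.32 (95% interval 0.08 to 0.55, adjusted p = 0.124), higher in 3 of 3 pairs, and passed the test when all 12 samples were fitted together (adjusted p = 0.0123).

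Fgfr2 (ENSMUSG00000030849, chr7:130162451-133123350), whose protein binds FGF7 in its epithelial form, was at 1985 to 2381 normalized counts in replicate 1 and at 496 to 700 in replicates 2 and 3. It was not called with fulvestrant, at 0.16 (95% interval −0.03 to 0.36, adjusted p = 0.261) against E2 and 0.04 (95% interval −0.23 to 0.31, adjusted p = 0.89) against vehicle. The gene counts do not separate the splice forms of the receptor.

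**Figure D2:**
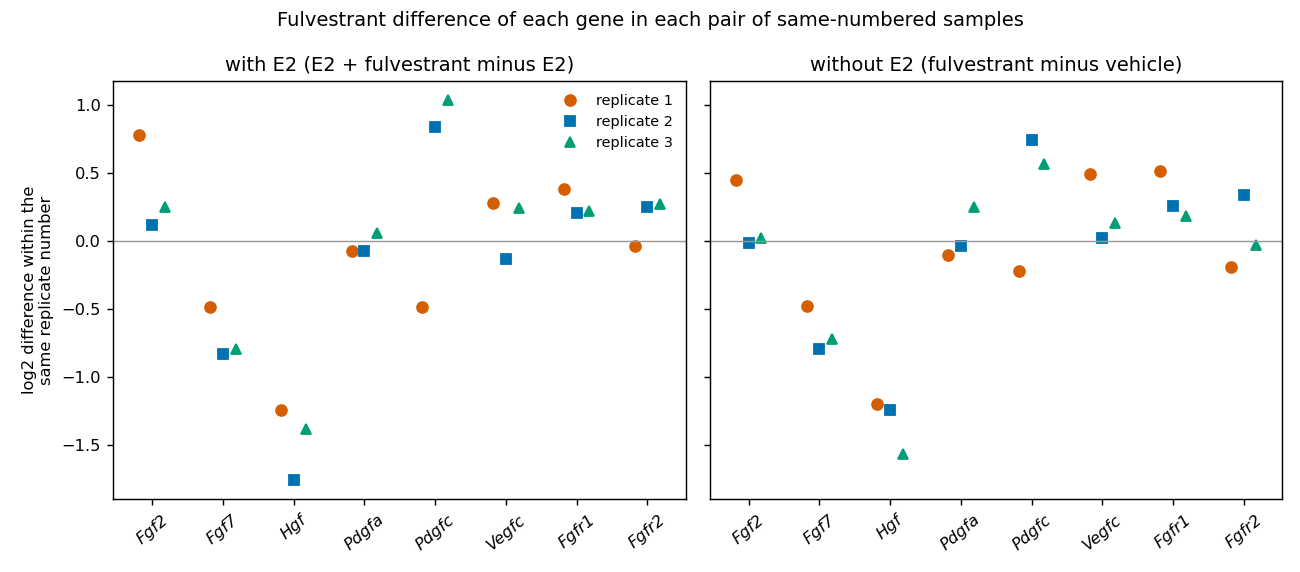
Log2 difference with fulvestrant (vertical axis) for each of the 8 genes (horizontal axis) in each pair of same-numbered samples, with E2 on the left and without it on the right; each point is 1 pair. The 6 points of Hgf and of Fgf7 lie below 0 and those of Fgfr1 above 0, while for Pdgfc pair 1 lies below 0 and pairs 2 and 3 above it.

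E2 alone left the 8 genes close to vehicle. None was called, where 0.431% of all genes were called, and no member's groups were free of overlap, against 5.19% of all genes. Fgf7 differed by −0.05 on the log2 scale (95% interval −0.16 to 0.07) and Hgf by 0.05 (95% interval −0.23 to 0.34). Fgfr2 came closest to the threshold, at −0.20 (95% interval −0.34 to −0.07, adjusted p = 0.228), with lower values in 3 of 3 pairs. Pdgfc was also lower in 3 of 3 pairs, at −0.15 (95% interval −0.30 to 0.01, adjusted p = 0.376). Fgfr1 was higher in 3 of 3 pairs, at 0.09 (95% interval −0.04 to 0.23, adjusted p = 0.485).

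In the presence of fulvestrant, adding E2 changed none of the 8 genes past the test. Here 0% of the 13233 genes were called by limma, with 516 at an unadjusted p under 0.05, and 2.42% of all genes had groups that did not overlap, none of them a member. Fgf2 was higher in 3 of 3 pairs, at 0.15 on the log2 scale (95% interval 0.02 to 0.29, adjusted p = 0.998). Fgf7 was lower in 3 of 3 pairs, at −0.08 (95% interval −0.19 to 0.02, adjusted p = 0.998), and Fgfr1 was higher in 3 of 3, at 0.05 (95% interval −0.06 to 0.15, adjusted p = 0.998).

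Whether the fulvestrant difference itself depended on E2 was tested as an interaction over all 12 samples, and 0% of genes were called by limma, with 501 at an unadjusted p under 0.05. The fulvestrant difference with E2 exceeded that without it by −0.04 for Fgf7 (95% interval −0.28 to 0.20), −0.13 for Hgf (95% interval −0.59 to 0.33) and −0.05 for Fgfr1 (95% interval −0.27 to 0.17) on the log2 scale. The interval was widest for Pdgfc, at 0.10 (95% interval −0.69 to 0.89). These intervals leave room for a dependence on E2, above all for Hgf and Pdgfc, and for Pdgfc it could be large.

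**Figure D3:**
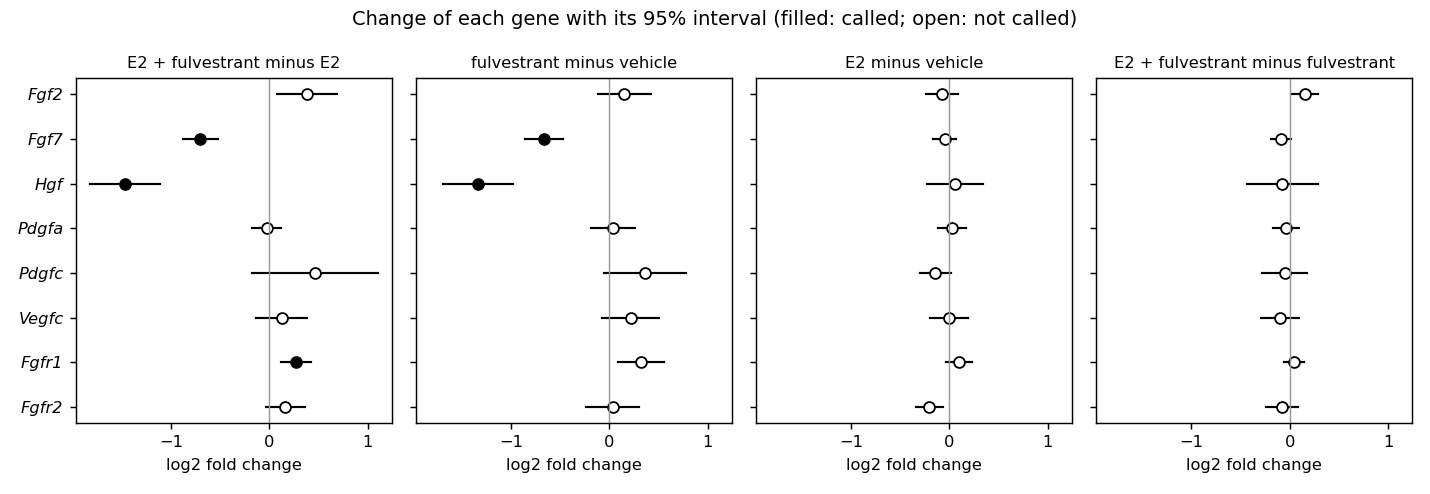
Log2 fold change of each of the 8 genes (horizontal axis) with its 95% interval from the limma fit with the replicate block, in 4 comparisons; filled points were called and open points were not. Fgf7 and Hgf are filled to the left of 0 in the first and second panels, Fgfr1 is filled to the right of 0 in the first, and the panels of E2 against vehicle and of E2 plus fulvestrant against fulvestrant hold no filled point.

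Per kilobase of exon, the 8 genes spanned a wide range of levels. Averaged over the 12 samples, Fgfr1 was at 1683 normalized counts per kilobase (range 1070 to 2036) and Fgf7 at 1335 (948 to 1854), followed by Pdgfa at 390 (290 to 545), Pdgfc at 206 (64.7 to 489), Vegfc at 186 (154 to 237), Fgf2 at 120 (93.6 to 192), Fgfr2 at 106 (48.1 to 231) and Hgf at 25.5 (10.3 to 46.1). The ranges of Fgfr1 and Fgf7 overlapped, and so did those of each neighbouring pair from Pdgfa to Fgfr2. Between Fgf7 and Pdgfa, and between Fgfr2 and Hgf, the ranges were apart. The place of Pdgfc above Vegfc came from replicate 1: over the 8 samples of replicates 2 and 3, Pdgfc was at 99.7 per kilobase (64.7 to 133), Vegfc at 177 (154 to 199), Fgf2 at 104 (93.6 to 117) and Fgfr2 at 55.7 (48.1 to 67.8), so Pdgfc lay below Vegfc in each of them and overlapped Fgf2.

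The 8 genes also fell apart by what their variation followed. Of the sum of squares of log2 values over the 12 samples, the treatment group accounted for 85.7% in Fgf7 and 85.8% in Hgf, and the replicate number for 9.92% and 11.4%. The replicate number accounted for 97.8% in Fgfr2, 96.1% in Pdgfa and 88.5% in Pdgfc. Replicate 1 was 4.30-fold above the mean of replicates 2 and 3 in Pdgfc, 3.69-fold in Fgfr2 and 1.64-fold in Pdgfa, and at 0.714-fold in Fgfr1. Fgfr1 was 66.7% replicate number and 28.9% treatment, Fgf2 60.9% and 22.04%, and Vegfc 36.8% and 27.6%. What distinguishes replicate 1 is not given in the labels, and its origin was not tested.

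After subtraction of the mean of each replicate number, Fgf7 and Hgf followed each other over the 12 samples (Pearson's r = 0.976, a description with no p, since the points share 4 treatment groups), and Fgfr1 ran opposite to both (r = −0.831 and −0.859). The genes most like Fgf7 on this measure among all those listed were Ankrd46 (r = 0.986), Cenpt (0.981) and Mospd3 (0.980). For Hgf they were Ptn (0.990), which encodes the heparin-binding growth factor pleiotrophin, Armcx2 (0.990) and Adam22 (0.987). For Fgfr1 they were Ppl (0.993), Timp2 (0.993), an inhibitor of matrix metalloproteinases, and Tiparp (0.992). Without the subtraction these correlations ran from −0.096 for Fgfr1 with Tiparp to 0.974 for Fgf7 with Mospd3, so the likeness is one within replicate numbers.

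Of 107 other genes of growth factor signaling, chosen by role, 88 were listed. With E2 plus fulvestrant against E2, 14 were called higher and 9 lower, where 8.68% of all genes were called, and with fulvestrant against vehicle 10 higher and 4 lower, where 5.23% of all genes were called. In both, 13 were called in the same direction, and 70 of the 88 had the same sign, beside 73.9% of all genes. The share of all genes called in both was not computed, so the 13 have no background beside them. These comparisons share no sample, though they share the replicate numbers. The median log2 difference was 0.06 and 0.07, beside 0.01 over all genes in both. Without the replicate block none of the 88 was called in either comparison, and with no variance trend 3 and 2 were. Against E2, where 23 were called in all, the number was 10 without replicate 3, when calls over all genes went from 1148 to 351. Against vehicle, where 14 were called in all, the number was 30 without replicate 1, 4 without replicate 2 and 0 without replicate 3, when calls over all genes went from 692 to 2208, 100 and 20.

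Among the other ligands, Pdgfd, a PDGF that acts mainly through PDGFRB, fell in both comparisons, by 0.87 on the log2 scale against E2 (adjusted p = 0.00317) and by 0.89 against vehicle (adjusted p = 0.0206). Its normalized counts were 2411, 1009 and 952 with E2 and 1108, 618 and 549 with E2 plus fulvestrant. Replicate 1 was again the highest in each group, but in contrast to Pdgfc each pair moved the same way. Vegfa, the main angiogenic VEGF, rose by 0.37 with E2 plus fulvestrant against E2 (adjusted p = 0.0358) and was at 0.27 against vehicle (adjusted p = 0.149). The listed FGF ligands other than members, Fgf10, Fgf18 and Fgf21, were not called.

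Of the genes that process these ligands, Plau, which encodes the urokinase protease that can activate HGF, rose by 0.30 against E2 (adjusted p = 0.0313) and 0.33 against vehicle (adjusted p = 0.0448). Plat, the tissue-type plasminogen activator, fell by 0.35 against E2 (adjusted p = 0.0253) and was at −0.09 against vehicle (adjusted p = 0.488). Adamts3, the protease that cleaves pro-VEGFC, fell by 1.58 on the log2 scale against E2 (adjusted p = 0.0134), and was at −1.09 against vehicle (adjusted p = 0.0937). It was at 2121, 143 and 114 normalized counts with E2 and at 418, 52.2 and 58.5 with E2 plus fulvestrant, so most of its reads came from replicate 1.

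Of the receptors of the HGF, PDGF and VEGFC ligands, Met, Pdgfra, Pdgfrb and Flt4 were not called. Met, the receptor of HGF, was at −0.14 on the log2 scale against E2 (adjusted p = 0.475) and −0.26 against vehicle (adjusted p = 0.337), Pdgfra at −0.20 (adjusted p = 0.241) and −0.26 (adjusted p = 0.232), Pdgfrb at −0.08 (adjusted p = 0.369) and −0.18 (adjusted p = 0.25), and Flt4 at 0.49 (adjusted p = 0.0989) and 0.53 (adjusted p = 0.18). Nrp2, a coreceptor that binds VEGFC, fell in both comparisons, by 0.77 (adjusted p = 0.00257) and 0.88 (adjusted p = 0.0122), with means of 15494 with E2 and 9315 with E2 plus fulvestrant. Fgfrl1, an FGF receptor without a kinase domain, fell by 0.29 against E2 (adjusted p = 0.0342) and was at −0.43 against vehicle (adjusted p = 0.0559).

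Among 18 listed coreceptor and heparan sulfate genes, 4 were lower and none higher with E2 plus fulvestrant against E2, where 4.07% of all genes were called lower, and 2 were lower and 1 higher with fulvestrant against vehicle, where 2.49% were called lower and 2.74% higher. The 4 were the core proteins Sdc2, Gpc4 and Gpc6, and Hs6st2, which adds sulfate to heparan sulfate chains. Sdc2 fell by 0.48 (adjusted p = 0.00854) and Gpc4 by 0.43 (adjusted p = 0.0181). Against vehicle they were not called, at −0.48 (adjusted p = 0.0534) for Sdc2 and −0.43 (adjusted p = 0.206) for Gpc4. Hs6st2 fell by 0.56 (adjusted p = 0.0221) and Gpc6 by 0.46 (adjusted p = 0.00322), and both were also called lower against vehicle, where Hs6st2 fell by 0.78 (adjusted p = 0.0221) and Gpc6 by 0.76 (adjusted p = 0.00665). Flrt3, a membrane protein that binds FGF receptors, rose by 1.05 against vehicle (adjusted p = 0.0426) and was at 0.68 against E2 (adjusted p = 0.0557).

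The feedback and immediate target genes of the ERK pathway held most of the calls in the higher direction. Of 23 listed, 11 rose with E2 plus fulvestrant against E2 and none fell, where 4.6% of all genes were called higher, with a median log2 difference of 0.41 and 22 of 23 above 0, beside 6960 of all 13233 genes. With fulvestrant against vehicle 7 rose and none fell, where 2.74% of all genes were called higher, with a median of 0.39 and 19 of 23 above 0, and all 7 were among the 11. The sign was the same in both comparisons for 18 of the 23, beside 73.9% of all genes, and the share of all genes called in both was not computed. Errfi1, an inhibitor of the EGF receptor, rose by 1.43 (adjusted p = 0.00129) and 1.62 (adjusted p = 0.00428), from 944, 2472 and 2513 normalized counts with E2 to 3316, 5733 and 6018 with E2 plus fulvestrant. Fosl1, an AP-1 subunit, rose by 1.43 (adjusted p = 0.00517) and 1.21 (adjusted p = 0.00296). Dusp6, a phosphatase that inactivates ERK, rose by 0.69 (adjusted p = 0.00579) and 0.65 (adjusted p = 0.00854), from 551, 971 and 958 normalized counts with E2 to 1035, 1379 and 1507 with E2 plus fulvestrant. Dusp5, another ERK phosphatase, rose by 0.99 against E2 (adjusted p = 0.0122) and was at 0.75 against vehicle (adjusted p = 0.116), while Dusp14, a phosphatase of the same family, rose by 0.90 (adjusted p = 0.0165) and was at 0.67 (adjusted p = 0.0883). Phlda1, a target of growth factor signaling, rose by 0.88 (adjusted p = 0.0462) and 0.70 (adjusted p = 0.00871), and Myc rose by 0.53 (adjusted p = 0.00348) and 0.77 (adjusted p = 0.00409).

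Not every feedback gene followed. The Sprouty genes, which encode inhibitors induced by FGF signaling, were not called, with Spry1 at 0.18 (adjusted p = 0.384), Spry2 at 0.12 (adjusted p = 0.169) and Spry4 at 0.41 (adjusted p = 0.115) against E2, and at −0.15 (adjusted p = 0.277), 0.08 (adjusted p = 0.571) and 0.32 (adjusted p = 0.0726) against vehicle. The transcription factor genes Etv4 and Etv5, also known FGF targets, were at 0.38 (adjusted p = 0.19) and 0.21 (adjusted p = 0.359) against E2, and at 0.26 (adjusted p = 0.404) and 0.18 (adjusted p = 0.25) against vehicle. Spry1, Spred1, Spred3 and Etv1 were the 4 listed genes of this group with a difference below 0 against vehicle, none of them called, and Etv1 was the lowest at −0.28 (adjusted p = 0.216). The number of called feedback genes was 4 without replicate 3 in the comparison with E2, and 2 without replicate 2 and 0 without replicate 3 in that with vehicle, but 11 and 12 without replicate 1. Over all genes the calls in the same fits were 351, then 100 and 20, and 1956 and 2208. None of the 88 genes was called between E2 and vehicle, where 0.431% of all genes were called, or between E2 plus fulvestrant and fulvestrant, where 0% were.

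**Figure D4:**
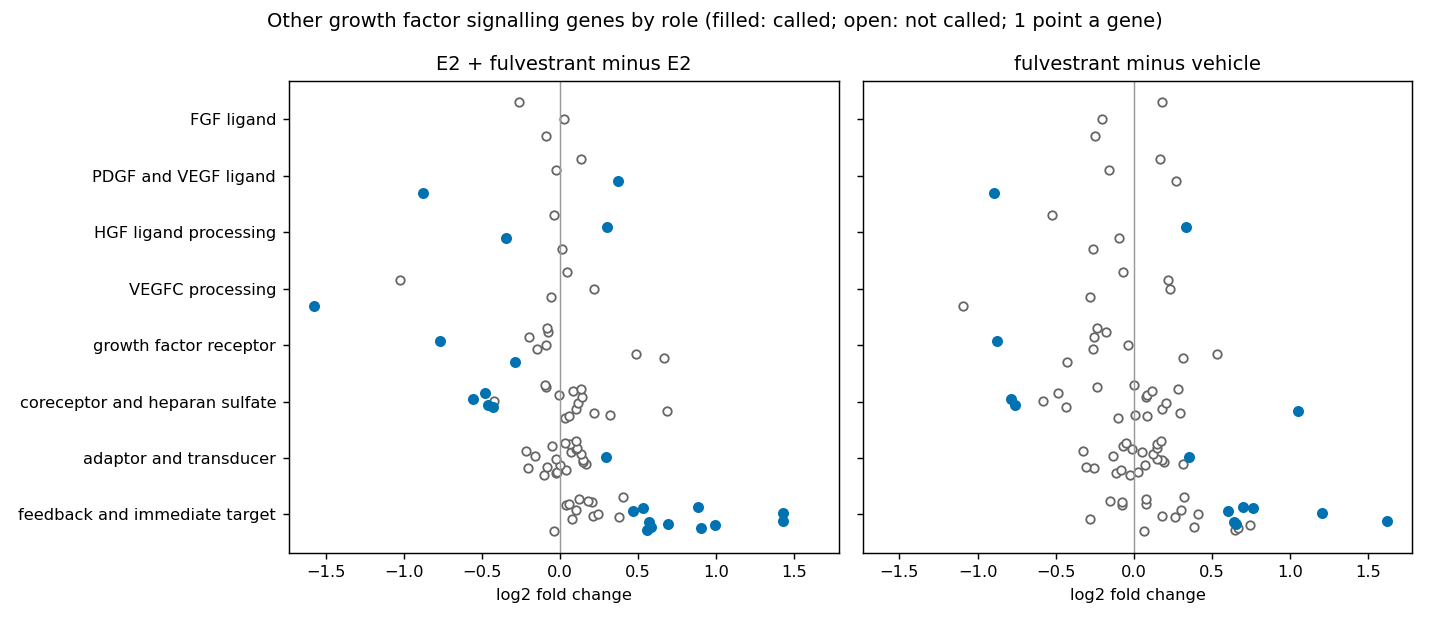
Log2 fold change (horizontal axis) of the 88 other growth factor signaling genes by role (vertical axis, with points spread for legibility), for E2 plus fulvestrant minus E2 on the left and fulvestrant minus vehicle on the right; each point is 1 gene, filled where called. In the feedback and immediate target row all filled points, 11 and 7, lie to the right of 0, while the filled receptor points lie to the left.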

How the data were processed

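RNA was measured by RNA-Seq (ribosomal RNA-depleted libraries) in 12 samples of primary HAFs, 4 groups of 3, grouped by the treatment in the labels. According to the submitters' processing notes and the study's methods, the authors trimmed reads with Trimmomatic 0.39, aligned them to mm10 with STAR 2.5.2, used HTSeq 0.13.5 for strand-specific gene counts, removed counts under 10 and normalized with DESeq2 1.37 with median-of-ratios factors. The signal that the authors deposited is a normalized read count, a count divided by 1 factor per sample. Once multiplied by a fitted factor, 100% came within a small rounding limit of whole numbers. The smallest deposited value was 8.27. A low gene therefore had no listed value, and the values still differed by replicate number. Depth is the reads on listed genes, with a median of 31703873 per sample.

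Values were transformed to log2(value + 1) and fitted per gene with limma 3.58.1 (R 4.3.3, eBayes with a variance trend) on the 6 samples of the 2 groups compared, with the replicate number as a block, or on all 12 samples for the interaction. Benjamini-Hochberg adjustment covered 13233 genes, and called genes had an adjusted p under 0.05 with a fold change over 1.2. Differences on this scale slightly understate changes of low genes. Pairing follows the replicate number that the labels give. In each of 18 pairs of samples with the same number, deviations from the group means correlated, at 0.63 to 0.92 (mean 0.76). Pairs of samples with different numbers were not compared. Since replicate 1 lay apart from the others in many genes, these correlations cannot show whether the remaining numbers are rightly paired. The block was chosen because the study's methods adjust for batch.

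Symbols and positions were taken from GENCODE M21 (GRCm38), which gave a symbol for 13149 genes; 7 of the 8 members had an upstream sequence in RefSeq, and that of Fgfr1 was not used here. The members, gene lists and tests were chosen with earlier results of these data known. Apart from the members, genes were named when called in the growth factor lists, up to the 5 largest changes in either direction, together with the members' receptors, Spry1, Spry2, Spry4, Dusp6, Etv4 and Etv5, the 3 genes most correlated with each called member, and Pgr and Esr1 as a check of treatment; Greb1 was not among the listed genes. Plau, Plat, Vegfa, Fgfrl1, Gpc4, Lum, Col1a1, Ly6a, Fgf10, Fgf18, Fgf21, Spred1, Spred3 and Etv1 fall outside that rule and were named after their values were seen. On simulated data for E2 against E2 plus fulvestrant with 200 of 13233 genes changed, the fit recovered 46% of genes changed 1.5-fold and 92% of those changed 2-fold, and 3.45% of calls were false. Apart from the changed genes, the simulation gave each replicate number the same level in every group and limited the spread of the most variable genes. The replicate block was thus correct by design, and these shares need not hold for the real samples. Alternatives were the pseudocount, a filter on low values, other blocks or none, all 12 samples in 1 fit, no variance trend, scaling to the sum of reads, no fold threshold, and omission of each replicate number. Plots were drawn with matplotlib 3.10.9 in Python 3.11.15.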

Additional observations from a re-analysis of the deposited data

How the results depend on the processing

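The replicate block decided the calls. Without it, 8 genes rather than 1148 were called between E2 plus fulvestrant and E2, 0 rather than 692 between fulvestrant and vehicle and 0 rather than 57 between E2 and vehicle, and 0 members in each. With no variance trend the counts were 218, 104 and 0, and 1 member, Hgf, in each fulvestrant comparison, since Fgf7 then had adjusted p of 0.0608 and 0.0712. A block of replicate 1 against the others gave 1360 genes between fulvestrant and vehicle, and all 12 samples in 1 fit gave 1648, and 10 between E2 and vehicle. Fgfr1 dropped out of the calls against E2 with values scaled to the sum of reads, at 0.25 on the log2 scale.

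Leaving out each replicate number in turn gave 351 to 1956 genes between E2 plus fulvestrant and E2, 20 to 2208 between fulvestrant and vehicle with 0 to 3 members, 6 to 279 between E2 and vehicle, 0 to 147 between E2 plus fulvestrant and fulvestrant, and 0 to 11 for the interaction. Such a fit rests on 2 pairs, and why these counts moved was not tested. The decreases of Fgf7 and Hgf with fulvestrant kept their direction under every alternative run.

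Small differences that were not called changed sign. With values scaled to the sum of reads, Pdgfa was at −0.0043 and Fgfr2 at −0.0062 between fulvestrant and vehicle, and Pdgfa at −0.0047 between E2 and vehicle. Over the replicate numbers left out, between fulvestrant and vehicle Fgfr2 ranged from −0.1133 to 0.1515 and Pdgfa from −0.0701 to 0.1072. Between E2 and vehicle, Hgf ranged from −0.0785 to 0.1929, Pdgfa from −0.0267 to 0.0732 and Vegfc from −0.0702 to 0.0289. Between E2 plus fulvestrant and fulvestrant, Hgf ranged from −0.2324 to 0.0244, Pdgfc from −0.1877 to 0.1299 and Fgfr2 from −0.1554 to 0.0055. For the interaction, Hgf ranged from −0.2809 to 0.0685 and Pdgfc from −0.0881 to 0.2806.

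Tests on counts with edgeR and DESeq2 had been planned and were not run. The values came within a small rounding limit of whole reads once multiplied by 1 factor per sample. Each held at least 10 reads, however, so the low values needed to check that recovery were missing. Hgf, the lowest member, had 63 to 454 reads per sample.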
